A study of Mus musculus with 8 samples.

Results

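Steroid-metabolising enzymes make, inactivate or conjugate steroid hormones inside the tissues that respond to them, and 10 such genes were followed through the estrous cycle of the mouse uterus: Hsd11b1, Hsd11b2, Hsd17b2, Hsd17b4, Hsd17b11, Srd5a1, Sult1e1, Cyp1b1, Akr1c18 and Sts. They were chosen by name, and their rows were taken from the authors' table of read counts per gene, whose identifiers were matched to symbols in an annotation of the GRCm38 genome. Of the 10, 9 were found among the 52308 genes of the table, and 8 of these were among the 18114 genes with enough counts to be tested. Sult1e1 was in the table but too low to test, and Sts was not analysed here.

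The uteri came from female ICR mice, an outbred albino stock, aged 6 to 8 weeks, that were staged by the cells seen in a vaginal smear. No treatment or engineered allele is named in the labels. There were 8 libraries of polyadenylated RNA, 2 each from proestrus, estrus, metestrus and diestrus, with 17863546 to 21896786 counts per library, made to ask which genes depend on the cycle. The labels do not say whether libraries came from separate or pooled animals, so a p-value covers only how these samples vary. Whole uterus holds epithelium, stroma, muscle, vessels and immune cells. Summed markers of epithelium lay between 887 and 5436 CPM (counts scaled to the depth of each library), those of stroma between 2438 and 4633 CPM and those of smooth muscle between 6324 and 16510 CPM. Markers of fat summed to 0 to 10.6 CPM and markers of the ovary to 6.15 to 16.8 CPM, with Fshr, the receptor of granulosa cells for follicle-stimulating hormone, at 0 in all 8 libraries.

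The ovary makes estradiol and progesterone, but the amount that reaches a receptor in a uterine cell also depends on enzymes in that cell. Hydroxysteroid dehydrogenases turn active hormones into weak ones or back, reductases make more potent androgens or remove progesterone, sulfotransferases add a sulfate that blocks receptor binding and sulfatase takes it off, and cytochromes hydroxylate the steroid ring. In the mouse, estradiol from growing follicles rises towards ovulation, and progesterone comes from the corpora lutea that form after it.

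RefSeq promoter windows on GRCm38.p6, which hold 250 bases before the start of a gene and 50 after it, were found for 6 of the 10 members. Those of 4 members are printed 5′ to 3′. Hsd11b1, Srd5a1 and Akr1c18 are shown because they moved together in 1 diestrus library, and Cyp1b1, a known target of the dioxin receptor, because its level set diestrus apart. Capitals mark GCGTG, the core that the dioxin receptor binds, on either strand. It begins at position -111 from the start in Hsd11b1, at -32 in Srd5a1 and at -76 in Cyp1b1. The RefSeq start used for Hsd11b1 lies inside the span of the gene in the annotation used for the counts' symbols.
Hsd11b1, chr1:193242311-193242610, minus strand: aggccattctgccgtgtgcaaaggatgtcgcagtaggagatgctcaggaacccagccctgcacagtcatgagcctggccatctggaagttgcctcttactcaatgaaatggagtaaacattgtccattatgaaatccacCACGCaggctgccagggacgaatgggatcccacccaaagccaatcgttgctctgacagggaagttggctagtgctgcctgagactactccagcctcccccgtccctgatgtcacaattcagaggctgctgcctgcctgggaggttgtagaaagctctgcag
Srd5a1, chr13:69611414-69611713, minus strand: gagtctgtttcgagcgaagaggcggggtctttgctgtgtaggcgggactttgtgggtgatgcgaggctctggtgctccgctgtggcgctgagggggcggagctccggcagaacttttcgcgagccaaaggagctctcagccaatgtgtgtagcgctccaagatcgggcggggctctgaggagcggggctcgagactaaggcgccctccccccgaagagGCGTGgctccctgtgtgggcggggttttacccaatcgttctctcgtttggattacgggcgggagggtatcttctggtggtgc
Akr1c18, chr13:4150597-4150896, minus strand: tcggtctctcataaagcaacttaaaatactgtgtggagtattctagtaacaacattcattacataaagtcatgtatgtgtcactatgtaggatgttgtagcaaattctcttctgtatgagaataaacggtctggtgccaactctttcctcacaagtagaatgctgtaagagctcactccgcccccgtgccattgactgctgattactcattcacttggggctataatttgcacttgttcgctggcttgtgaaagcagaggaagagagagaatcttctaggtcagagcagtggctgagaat
Cyp1b1, chr17:79715012-79715311, minus strand: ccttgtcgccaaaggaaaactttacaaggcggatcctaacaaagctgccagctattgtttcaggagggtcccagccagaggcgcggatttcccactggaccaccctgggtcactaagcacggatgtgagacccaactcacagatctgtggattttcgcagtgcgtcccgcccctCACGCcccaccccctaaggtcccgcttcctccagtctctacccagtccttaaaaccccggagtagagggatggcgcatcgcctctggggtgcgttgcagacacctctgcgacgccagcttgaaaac

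The windows were searched on both strands for GCGTG, for the estrogen response element, which is GGTCA and TGACC with 3 bases between them, and for ACANNNTGT, the core bound by the progesterone and glucocorticoid receptors. Only GCGTG had matches in the members' windows, so matches of different motifs could not overlap there. GCGTG was in 32.4% of the 32851 windows of the same length, ACANNNTGT in 6.85% and the estrogen response element in 0.07%. Among the 6 members, GCGTG was found once each in Hsd11b1, Hsd17b11, Srd5a1 and Cyp1b1, and the other motifs had no match in these windows. The windows of Hsd17b11, where GCGTG begins at -249, and of Sult1e1 are not printed.

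**Figure D1:**
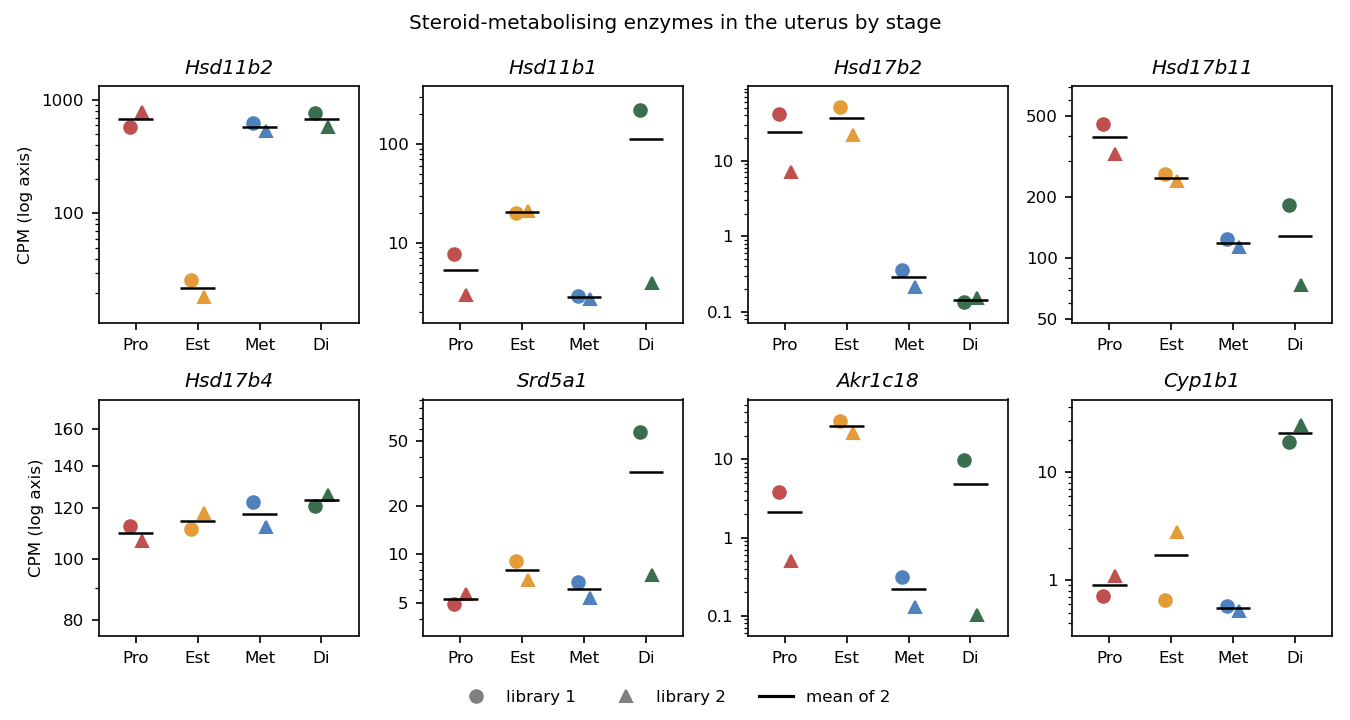
CPM on a log axis for the 8 tested members in every library (points) of proestrus, estrus, metestrus and diestrus, with the mean of each stage as a bar. Hsd11b2 is low in both estrus libraries, Hsd17b2 is high in proestrus and estrus, Cyp1b1 is high in both diestrus libraries, and Hsd11b1, Srd5a1 and Akr1c18 differ widely between the 2 diestrus libraries.

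Hsd11b2 and Hsd11b1 encode the enzymes that inactivate and regenerate glucocorticoids, and Hsd11b2 was low in a single stage, estrus. It had 576 and 788 CPM in proestrus, 26.1 and 18.3 CPM in estrus, 632 and 529 CPM in metestrus, and 771 and 579 CPM in diestrus. Both estrus libraries lay far below all 6 others, and the 3 other stages overlapped. Hsd11b2 (ENSMUSG00000031891; GRCm38 chr8:105518755-105523988, plus strand) averaged 22.2 ± 5.54 CPM in estrus, against 682 ± 150.2 CPM in proestrus (SD, n = 2 each), a 30.7-fold lower level (log2 fold change -4.94 ± 0.29 SE, adjusted p = 0.00128, edgeR quasi-likelihood test). In metestrus it averaged 581 ± 73.3 CPM, against the estrus value above, a 26.2-fold higher level (log2 fold change 4.71 ± 0.29 SE, edgeR adjusted p = 0.000821). Estrus lay 30.4-fold below diestrus, where the mean was 675 ± 135.9 CPM (log2 fold change -4.93 ± 0.29 SE, edgeR adjusted p = 0.00071). Its p ranked 97 among the 18114 tested genes across the 4 stages (edgeR adjusted p = 0.00111), and these 4 calls held with any single library left out. Markers of the stratified epithelium of cervix and vagina were lower in estrus than in proestrus in 4 of 4, with sums of 0.900 and 0.671 CPM in estrus, against 6.15 and 12.01 CPM in proestrus, and Krt14 at 0 in the second estrus library. Of 4 tested leukocyte markers 3 were higher in estrus than in proestrus, with sums over the list of 422 and 458 CPM, against 134 and 93.8 CPM. In metestrus the stratified epithelium markers summed to 2.99 and 2.22 CPM, and in diestrus to 1.35 and 2.67 CPM, all below both proestrus sums. The leukocyte markers summed to 145 and 158 CPM in metestrus, and to 164 and 178 CPM in diestrus. The part of both lists in the estrus level of Hsd11b2 was not tested.

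Hsd11b1 (ENSMUSG00000016194; GRCm38 chr1:193221634-193264075, minus strand), whose protein makes active glucocorticoid with reducing power that H6pd supplies in the endoplasmic reticulum, did not pass edgeR's test in any comparison. It had 7.69 and 2.93 CPM in proestrus, 19.9 and 20.96 CPM in estrus, 2.90 and 2.70 CPM in metestrus, and 223 and 3.93 CPM in diestrus. Estrus lay above proestrus and metestrus without overlap, while the first diestrus library, with 4952 counts, lay far above all others and the second lay among the low ones. In estrus the mean was 20.4 ± 0.74 CPM, against 5.31 ± 3.37 CPM in proestrus (log2 fold change 1.94 ± 1.44 SE, edgeR adjusted p = 0.385). Across the stages the adjusted p was 0.0632 by edgeR and 0.00852 by DESeq2. Without the first diestrus library the adjusted p of estrus against proestrus was 0.0192 and without the second 0.0137, and metestrus against estrus, at 0.179, came to 0.00325 and 0.00236. Estrus against diestrus turned round: its log2 fold change of -2.47 ± 1.39 SE (adjusted p = 0.239) was 2.35 without the first diestrus library (adjusted p = 0.024) and -3.45 without the second (adjusted p = 0.00273). Where a library is left out, here and in other results, its stage keeps a single one, which is assumed to vary like the other stages. The 2 diestrus libraries themselves differed 56.6-fold for Hsd11b1.

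H6pd, named here after its values were seen although the naming rule did not take it, had 304 and 251 CPM in proestrus, 368 and 273 CPM in estrus, 93.1 and 89.6 CPM in metestrus, and 435 and 105 CPM in diestrus. Metestrus lay below proestrus and estrus without overlap, and the first diestrus library was again the high one. The fall in metestrus against estrus passed the test narrowly (log2 fold change -1.81 ± 0.58 SE, edgeR adjusted p = 0.0498). It was lost with DESeq2's size factors (adjusted p = 0.0511) and without any 1 proestrus, estrus or metestrus library (0.0786 to 0.197).

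The balance of the pair was read per length of exon, which allows levels of different genes to be compared. The ratio of Hsd11b2 to Hsd11b1 in CPM per kilobase was 173 and 622 in the proestrus libraries, 3.03 and 2.01 in the estrus libraries, 503.6 and 453 in the metestrus libraries, and 8.00 and 340.1 in the diestrus libraries. Both estrus ratios were below all others, and the first diestrus library came next. In estrus the low ratio came with less Hsd11b2 and with more Hsd11b1 than in proestrus and metestrus, whereas in that diestrus library Hsd11b2 lay within its range in proestrus and metestrus and Hsd11b1 was high. In whole tissue, fewer cells of a type and less RNA per cell cannot be told apart, here and in all results that follow.

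**Figure D2:**
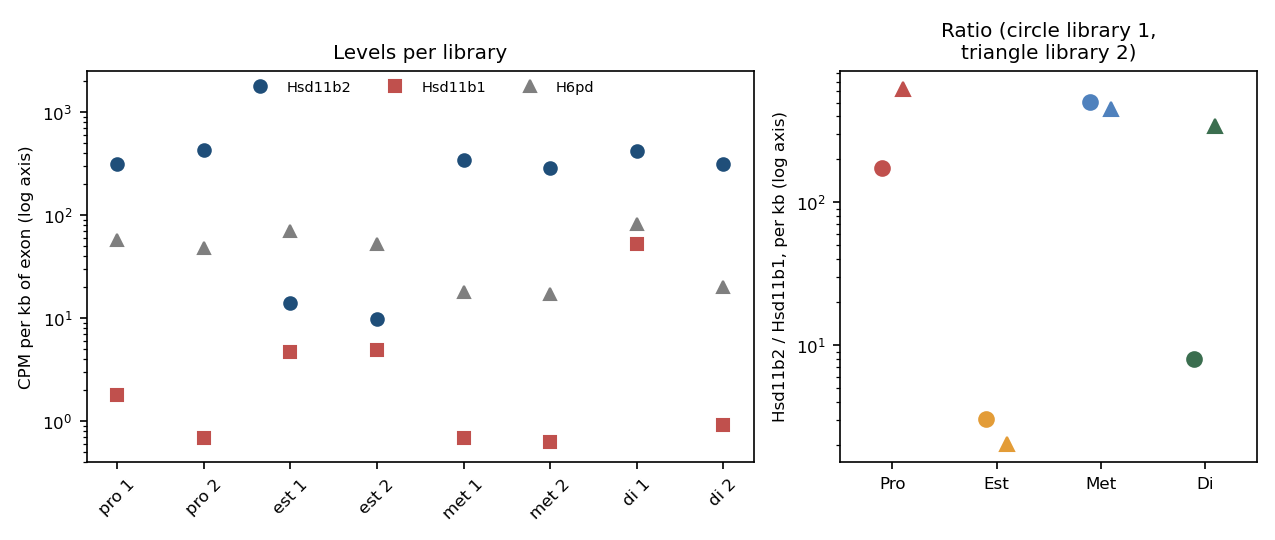
Left, Hsd11b2, Hsd11b1 and H6pd in CPM per kilobase of exon in each library (log axis); right, the ratio of Hsd11b2 to Hsd11b1 by stage (log axis, circles library 1, triangles library 2). The ratio is 3.03 and 2.01 in the estrus libraries and 173 or more in 5 of the 6 others, with the first diestrus library at 8.00.

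Hsd17b2, Hsd17b11 and Hsd17b4 encode oxidative dehydrogenases, and they followed 3 different courses. Hsd17b2, which oxidises estradiol to the weaker estrone, was present in proestrus and estrus and near the detection limit in metestrus and diestrus. Hsd17b11, a lipid droplet protein that acts on androgens, was highest in proestrus and lower in metestrus and diestrus. Hsd17b4, a peroxisomal enzyme of fatty acid breakdown that also oxidises estradiol, stayed within a narrow range.

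Hsd17b2 (ENSMUSG00000031844; GRCm38 chr8:117701904-117759027, plus strand) had 41.3 and 7.20 CPM in proestrus, 51.6 and 21.9 CPM in estrus, 0.357 and 0.214 CPM in metestrus, and 0.135 and 0.151 CPM in diestrus. The 4 libraries of proestrus and estrus lay above the other 4 without overlap, with a wide spread within each of these stages. The low stages rest on few reads, with 8 and 5 counts in metestrus and 3 counts in each diestrus library, so that a diestrus level of 0.135 CPM has a 95% exact Poisson interval of 0.0278 to 0.394 CPM. Such intervals cover counting error only. Hsd17b2 fell to 0.286 ± 0.101 CPM in metestrus, against 36.8 ± 21.03 CPM in estrus (SD, n = 2 each; log2 fold change -6.98 ± 1.07 SE, edgeR adjusted p = 0.005). This call was lost without the second metestrus library (adjusted p = 0.0507). Proestrus, at 24.2 ± 24.1 CPM, was above diestrus, at 0.143 ± 0.0116 CPM (log2 fold change 7.35 ± 1.16 SE, edgeR adjusted p = 0.00772). Estrus was above diestrus by 7.95 ± 1.17 SE on the log2 scale (adjusted p = 0.00628), and both of these calls, and the one across the stages (adjusted p = 0.00523), held with any library left out. Metestrus was below proestrus (log2 fold change -6.38 ± 1.06 SE, edgeR adjusted p = 0.0124), a call that ended without the first (0.0889) or second (0.111) metestrus library.

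Hsd17b11 (ENSMUSG00000029311; GRCm38 chr5:103989762-104021919, minus strand) had 460.5 and 328 CPM in proestrus, 259.5 and 240.4 CPM in estrus, 125 and 114 CPM in metestrus, and 184 and 73.6 CPM in diestrus. The libraries fell into steps without overlap between proestrus, estrus and metestrus, and the 2 diestrus libraries lay on either side of metestrus. Proestrus averaged 394 ± 93.8 CPM, against 129 ± 77.7 CPM in diestrus (log2 fold change 1.61 ± 0.40 SE, edgeR adjusted p = 0.0319). Metestrus averaged 119 ± 7.58 CPM, against the same proestrus mean (log2 fold change -1.72 ± 0.40 SE, edgeR adjusted p = 0.0329). These 2 calls and that across the stages (adjusted p = 0.0321) were each lost without any 1 of the 6 libraries of proestrus, estrus and metestrus, with adjusted p of 0.059 to 0.157, 0.0631 to 0.185 and 0.0619 to 0.117 in that order. With only the 4 libraries of the pair, proestrus against diestrus had an adjusted p of 0.123.

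Markers of epithelium were, like both genes, higher in proestrus and estrus than in metestrus and diestrus. All 6 markers had counts in every library, and their summed level was 5436 and 4586 CPM in proestrus, 3504 and 3031 CPM in estrus, 1223 and 1163 CPM in metestrus, and 887 and 1027 CPM in diestrus. In metestrus against proestrus 6 of the 6 fell, and 5 of 6 were higher in proestrus and in estrus than in diestrus. Within diestrus, the first library had the lower marker sum and the higher level of Hsd17b11, 184 against 73.6 CPM. The markers were split there. Epcam (163 against 117 CPM), Krt7 (142 against 57.7 CPM) and Krt18 (257 against 133 CPM) were higher in the first library. Cdh1 (135 against 228 CPM), Krt8 (145 against 275 CPM) and Krt19 (45 against 215 CPM) were lower. The part of these markers in the levels of Hsd17b2 and Hsd17b11 was not tested.

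Hsd17b4 (ENSMUSG00000024507; GRCm38 chr18:50128201-50196269, plus strand) had 112 and 107 CPM in proestrus, 111 and 118 CPM in estrus, 123 and 112 CPM in metestrus, and 121 and 126 CPM in diestrus. Diestrus lay just above proestrus and estrus without overlap, and the other pairs of stages overlapped. Across the stages its adjusted p was 0.506 by edgeR, and log2 fold changes of the 6 pairs lay between -0.17 and 0.10, each with an SE of 0.10. It did not pass in any comparison under any alternative run.

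**Figure D3:**
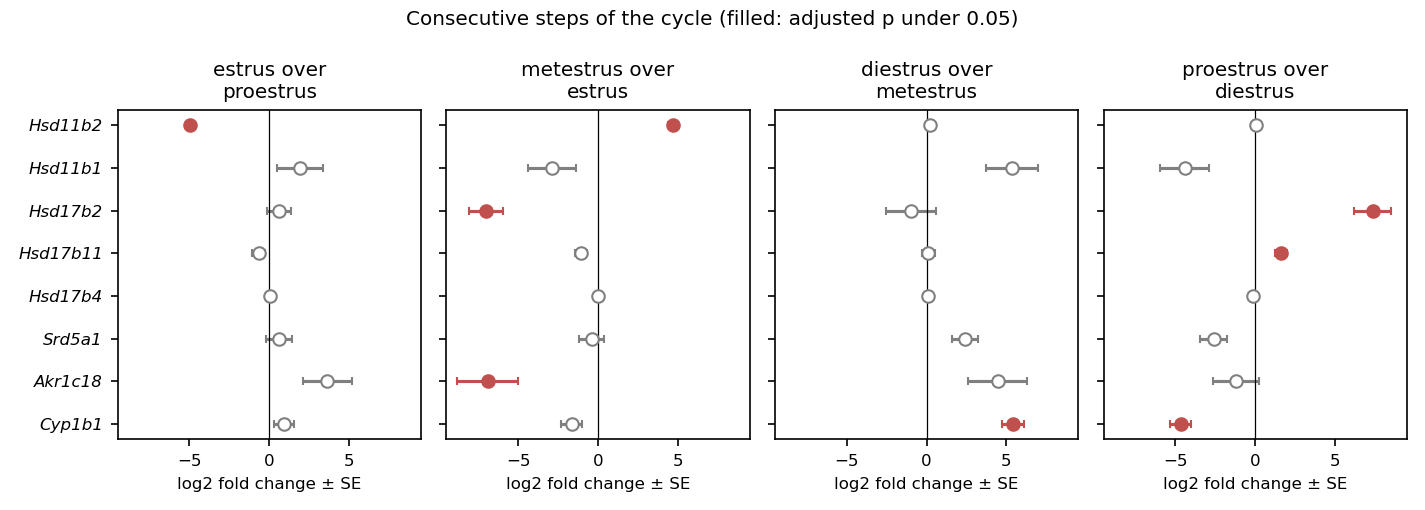
Log2 fold change with its SE (bars) for the 8 tested members in the 4 consecutive steps of the cycle, first stage named over the second. Filled points passed an adjusted p of 0.05: Hsd11b2 in the steps into and out of estrus, Hsd17b2 and Akr1c18 in metestrus over estrus, Cyp1b1 in diestrus over metestrus, and Hsd17b2, Hsd17b11 and Cyp1b1 in proestrus over diestrus.

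Cyp1b1, a cytochrome that hydroxylates estradiol to catechol estrogens, was highest in diestrus. It had 0.718 and 1.09 CPM in proestrus, 0.650 and 2.79 CPM in estrus, 0.580 and 0.513 CPM in metestrus, and 19.0 and 27.7 CPM in diestrus. Both diestrus libraries, with 423 and 549 counts, lay above the other 6, which had 12 to 54 counts. Cyp1b1 (ENSMUSG00000024087; GRCm38 chr17:79701537-79715061, minus strand) averaged 23.4 ± 6.12 CPM in diestrus, against 0.547 ± 0.0474 CPM in metestrus, a 42.3-fold higher level (log2 fold change 5.40 ± 0.70 SE, edgeR adjusted p = 0.0398). This call was lost without the first (0.0814) or second (0.0858) proestrus library, without the first (0.34) or second (0.387) metestrus library, and with only the 4 libraries of the pair (0.133). Proestrus, at 0.905 ± 0.264 CPM, lay 25.6-fold below diestrus (log2 fold change -4.68 ± 0.67 SE, edgeR adjusted p = 0.00547, or 0.0525 without the first proestrus library). Estrus, at 1.72 ± 1.51 CPM, lay 13.6-fold below diestrus (log2 fold change -3.76 ± 0.63 SE, edgeR adjusted p = 0.00913). That call and the one across the stages (adjusted p = 0.00342) held with any library left out. Among the low stages, the second estrus library stood above the first, and leaving it out turned the sign of the log2 fold change of estrus over proestrus, 0.92 ± 0.64 SE (adjusted p = 0.36), to -0.48. Markers of endothelium summed to 649 and 474 CPM in diestrus and to 329 to 449 CPM in the other stages, and those of stroma to 4552 and 3062 CPM in diestrus and to 2438 to 4633 CPM in the others. Of the endothelium markers, Kdr (108 and 93.2 CPM in diestrus, 97.5 and 124 CPM in metestrus) and Cdh5 overlapped with other stages. Pecam1 and Emcn were higher in both diestrus libraries than in any other, and 2 of 4 endothelium markers were called lower in proestrus and in estrus than in diestrus. Within the stroma list, 4 of 6 markers were lower in proestrus than in diestrus and 3 of 6 lower in estrus than in diestrus. In diestrus over metestrus, 0 of 6 stroma and 0 of 4 endothelium markers were called, where 0.508% of all tested genes were. Hoxa10 had 324 and 358 CPM in diestrus and 78.9 to 180 CPM elsewhere, Hoxa11 had 183 and 184 CPM in diestrus and 42.6 to 90.8 CPM elsewhere, and Hand2 had 52.2 and 79.8 CPM in diestrus and 17.8 to 39 CPM elsewhere. The rest of the stroma list overlapped between diestrus and the other stages. Vim had 911 and 831 CPM in diestrus and 620 to 944 CPM elsewhere. Pdgfra had 541 and 472 CPM, against 168 to 493 CPM, and Dcn 2540 and 1140 CPM, against 1300 to 3020 CPM. The part of these markers in the diestrus level of Cyp1b1 was not tested.

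Akr1c18 and Srd5a1 encode reductases. Akr1c18 turns progesterone into a weak metabolite and is known from the corpus luteum, and Srd5a1 reduces testosterone to dihydrotestosterone and also acts on progesterone. Akr1c18 was highest in estrus and passed the test in a single comparison, and Srd5a1 was low outside 1 diestrus library and passed in none.

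Akr1c18 (ENSMUSG00000021214; GRCm38 chr13:4132615-4150654, minus strand) had 3.79 and 0.496 CPM in proestrus, 31.4 and 21.9 CPM in estrus, 0.312 and 0.128 CPM in metestrus, and 9.72 and 0.101 CPM in diestrus. Both estrus libraries lay above all others. The low libraries hold 10 counts in proestrus, 7 and 3 in metestrus and 2 in diestrus, and the last of these allows 0.0122 to 0.364 CPM (95% exact Poisson interval). Metestrus averaged 0.220 ± 0.130 CPM, against 26.7 ± 6.70 CPM in estrus (log2 fold change -6.89 ± 1.91 SE, edgeR adjusted p = 0.0313). The call was lost without the first (0.099) or second (0.078) estrus library and without the first (0.139) or second (0.169) metestrus library. Estrus against proestrus, where the mean was 2.15 ± 2.33 CPM, had a log2 fold change of 3.64 ± 1.53 SE (edgeR adjusted p = 0.151), which came to 0.019 and 0.0184 without the first and the second diestrus library. Across the stages edgeR's adjusted p of 0.064 came to 0.00377 and 0.00556 without these libraries, and DESeq2 gave 0.0222. Akr1c18 belongs to a cluster of similar Akr1c genes, among which the counting could split reads. Markers of leukocytes, which were highest in estrus with summed levels of 422 and 458 CPM, lay between 93.8 and 178 CPM in the other stages, and their part in the estrus level was not tested.

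Srd5a1 (ENSMUSG00000021594; GRCm38 chr13:69573449-69611442, minus strand) had 4.92 and 5.66 CPM in proestrus, 9.05 and 6.92 CPM in estrus, 6.79 and 5.39 CPM in metestrus, and 57.3 and 7.46 CPM in diestrus. Apart from the first diestrus library, all values lay between 4.92 and 9.05 CPM. Proestrus averaged 5.29 ± 0.52 CPM, against 32.4 ± 35.2 CPM in diestrus (log2 fold change -2.61 ± 0.83 SE, edgeR adjusted p = 0.066). Without the first diestrus library the log2 fold change was -0.51 (adjusted p = 0.256), and without the second, which leaves only the high one, -3.43 (adjusted p = 0.00061). The test across the stages, at 0.0685, came to 0.236 and 0.000486 without these libraries. DESeq2 gave 0.00215 and 0.00086 on all libraries. In 476 bases, 16.4% of its exon length, Srd5a1 overlaps Gm17108, which lies on the same strand.

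Sult1e1 (ENSMUSG00000029272; GRCm38 chr5:87575969-87591594, minus strand), the sulfotransferase that inactivates estrogens, was not detected beyond 1 count in the second proestrus library. The 7 other libraries had 0 counts, which allows up to 0.158 to 0.19 CPM (95% exact Poisson interval). A floor of 3 counts per library would lie at 0.128 to 0.155 CPM.

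**Figure D4:**
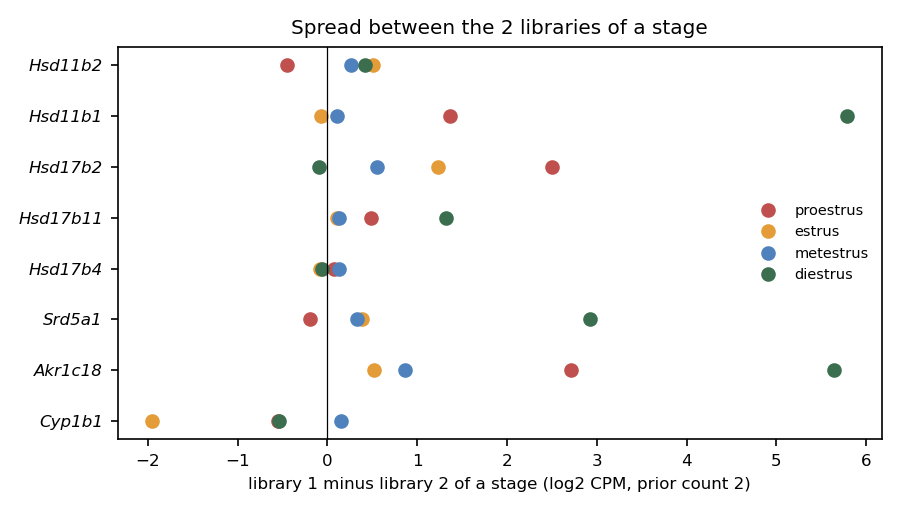
Difference between library 1 and library 2 of each stage (log2 CPM, prior count of 2) for the 8 tested members, coloured by stage. In diestrus, Hsd11b1 at 5.79, Akr1c18 at 5.64 and Srd5a1 at 2.93 stand far from 0, whereas Hsd17b4 lies near 0 in every stage.

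The 2 diestrus libraries were set apart by 3 members. Library 1 exceeded library 2 by 5.79 in log2 CPM (prior count of 2) for Hsd11b1, by 5.64 for Akr1c18 and by 2.93 for Srd5a1. Differences at least as large were found in 0.199%, 0.232% and 1.52% of the tested genes in that stage. Hsd17b11 differed by 1.32, which 9.71% of genes matched or exceeded, while differences as large as those of Hsd11b2 at 0.41, Cyp1b1 at -0.54 and Hsd17b4 at -0.06 were found in 32.9% to 89.5% of genes. In linear terms, library 1 had 56.6 times the CPM of library 2 for Hsd11b1 and 7.68 times for Srd5a1, and 4.13 times for H6pd. Markers of smooth muscle summed to 16510 CPM in library 1 and 6324 CPM in library 2, and those of glands to 175 CPM and 56.6 CPM, of which Spink1 made up 153 CPM and 0.454 CPM. Of the other gland markers, Cxcl15 and Foxa2 were lower in library 1, at 2.2 against 35.8 CPM and 14.3 against 17.3 CPM. Lif was higher there, at 4.68 against 2.98 CPM. Stroma markers summed to 4552 and 3062 CPM, epithelium markers to 887 and 1027 CPM, and fat markers were at 0 in both. The stroma and epithelium lists were split. In stroma, Dcn (2540 against 1140 CPM), Vim and Pdgfra were higher in library 1, and Hoxa10, Hoxa11 (183 against 184 CPM) and Hand2 were lower. In epithelium, Epcam, Krt7 and Krt18 were higher in library 1, and Cdh1, Krt8 and Krt19 (45 against 215 CPM) were lower. The part of these markers in the difference was not tested.

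In the other stages, proestrus library 1 exceeded library 2 by 2.72 for Akr1c18 and 2.50 for Hsd17b2, as much as in 1.02% and 1.18% of genes. Estrus library 2 exceeded library 1 for Cyp1b1, with a log2 difference of -1.95, and 1.35% of genes differed as much. In metestrus the largest difference among members was 0.86, for Akr1c18. Over the 8 libraries the root mean square difference in log2 CPM, centred on each gene's mean, was 1.22 between Hsd11b1 and Srd5a1 and 1.84 between Hsd11b1 and Akr1c18. It was largest among members between Hsd11b2 and Hsd17b2, at 4.89. Such a distance is a description, and it is also small between genes that vary little.

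Counted over the list, 4 of the 8 tested members passed the test across the 4 stages, namely Hsd11b2, Hsd17b2, Hsd17b11 and Cyp1b1, where 39.1% of all tested genes did. Alternative runs, here and in the pairs below, also moved the number called among all tested genes. In the main run the share of members was near that 39.1%. The count was 7 without the second diestrus library, with DESeq2 and with no filter on low counts.

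In estrus over proestrus, 1 of 8 members, Hsd11b2, was lower, where 6.94% of all tested genes were lower and 8.12% higher. The median log2 fold change of the members was 0.60, beside 0.01 over all tested genes. The count was 4 without either diestrus library and 3 when the fit held the libraries of the pair alone. In metestrus over estrus, 1 member, Hsd11b2, was higher, where 16.7% of genes were, and 2, Hsd17b2 and Akr1c18, were lower, where 19.5% were. The median was -1.35 for the members and -0.05 for all genes. The 3 calls came to 1 without the second metestrus library and to 5 without either diestrus library, with DESeq2 and in a fit of the pair alone.

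In diestrus over metestrus, Cyp1b1 was the single member called, and it was higher, where 0.282% of genes were, a stage pair with 92 calls among all genes. The median was 1.31 for members and 0.02 for all genes. For Hsd11b1, Akr1c18 and Srd5a1 the rise rests on the first diestrus library. Without it their log2 fold changes of 5.34, 4.46 and 2.41 came to 0.48, -1.09 and 0.28 in that order. The members' medians of the other pairs with diestrus include the same library. The count was 0 without either proestrus or either metestrus library, and with only the libraries of the pair, although 4 members had an unadjusted p under 0.05 in the full fit. It was 4 without the second diestrus library and 3 with DESeq2. In proestrus over diestrus, Hsd17b2 and Hsd17b11 were higher, where 12.0% of genes were, and Cyp1b1 was lower, where 10.4% were. The median was -0.69 for members and -0.01 for all genes. The 3 calls came to 1 without the first proestrus library and to 5 without the second diestrus library, with DESeq2 and without the filter.

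In estrus over diestrus, Hsd17b2 was higher, where 13.9% of genes were, and Hsd11b2 and Cyp1b1 were lower, where 9.97% were. The median was -1.06 for members and -0.02 for all genes, and the 3 calls came to 6 without the first and 5 without the second diestrus library, and 5 with DESeq2. In metestrus over proestrus, Hsd17b2 and Hsd17b11 were lower, where 10.3% of genes were lower and 6.68% higher. The median was -0.82 for members and 0.01 for all genes. The 2 calls came to 1 without any 1 proestrus or estrus library and to 0 without either metestrus library. In the full fit 2 members had an unadjusted p under 0.05, and DESeq2 called as many by adjusted p.

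Read per length of exon and averaged over the 8 libraries, the levels of the members spanned a wide range. Hsd11b2 had 266 CPM per kilobase, above 99.2% of tested genes, followed by Hsd17b11 at 68.3 and Hsd17b4 at 34.2 CPM per kilobase. Hsd11b1 at 8.34, Hsd17b2 at 7.98, Akr1c18 at 7.03 and Srd5a1 at 4.45 CPM per kilobase lay in the middle, and Cyp1b1 was lowest of the tested members at 1.14. Without the first diestrus library, Hsd11b1 averaged 2.05 and Srd5a1 2.27 CPM per kilobase, below Hsd17b2 at 9.11 and Akr1c18 at 6.89. In estrus alone the order was another one: Hsd17b11 led at 76.6 CPM per kilobase, and Hsd11b2, at 12.1, came after Hsd17b4 at 33.7, Akr1c18 at 22.1 and Hsd17b2 at 19.1.

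For Hsd11b2, Cyp1b1 and Hsd17b2, the 3 members of lowest p over the cycle, the 3 tested genes with the most similar course were taken by the smallest root mean square difference of centred log2 CPM over the 8 libraries. Identifiers without a symbol and predicted genes with clone-like names were skipped. For Hsd11b2 these were Minar1 and Has2, both at 0.58, and Fkbp14 at 0.67, where the median over all tested genes was 2.16. Has2, which makes hyaluronan, had stage means of 7.59, 0.127, 11.4 and 10.5 CPM from proestrus to diestrus. For Cyp1b1 they were Adarb2 at 0.62, Zbtb16 at 0.69 and Hif3a at 0.87, against a median of 2.12. Adarb2 was low, with stage means of 0, 0.0258, 0 and 2.77 CPM from proestrus to diestrus. Zbtb16, a transcription factor, averaged 3.65, 6.01, 4.51 and 94.5 CPM in the same order of stages, and Hif3a, a subunit of the hypoxia-inducible factors, 1.59, 1.55, 1.18 and 33.4 CPM. For Hsd17b2 they were Il1f9 at 0.31, Cxcl5 at 0.45 and Trim40 at 0.50, against a median of 3.30. Cxcl5, a chemokine that attracts neutrophils, averaged 27.5, 60.4, 0.501 and 0.185 CPM, and Il1f9, a cytokine of the interleukin-1 family, 11.7, 28.2, 0.175 and 0.0702 CPM.

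Other genes of steroid synthesis, conversion, conjugation and transport, 52 in number, were read beside the members, and 39 of them were tested. Across the stages 18 of the 39 changed by edgeR's test, beside the 39.1% of all tested genes, and 9 did without either the first or the second estrus library. In estrus over proestrus 7 were higher and 3 lower, in metestrus over estrus 4 higher and 11 lower, and in diestrus over metestrus 1 was higher. In proestrus over diestrus 9 were higher and 3 lower, in estrus over diestrus 8 higher and 5 lower, and in metestrus over proestrus 2 higher and 7 lower. Of the 39, 25.6%, 38.5%, 2.56%, 30.8%, 33.3% and 23.1% were thus called in these pairs, in the order given. Over all tested genes the shares were 15.1%, 36.2%, 0.508%, 22.4%, 23.8% and 16.9%. These pair counts moved by over 1.5 times without single libraries. The 10 of estrus over proestrus came to 0 without any 1 library of the pair and to 6 without either metestrus library, against 16 with an unadjusted p under 0.05. The 15 of metestrus over estrus came to 5 or 6 without any 1 library of the pair, and the 13 of estrus over diestrus to 6 and 5 without the first and second estrus library. The 12 of proestrus over diestrus came to 5 without the first proestrus library and 7 without either estrus library, and the 9 of metestrus over proestrus to 0 to 5 without any 1 proestrus, estrus or metestrus library. The 1 call of diestrus over metestrus, where 9 genes had an unadjusted p under 0.05, was lost without any 1 proestrus, estrus or metestrus library, and the count was 6 without the second diestrus library.

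Most genes of hormone synthesis were close to absent. Cyp11a1, which starts all steroid synthesis, had 0 to 13 counts, Cyp17a1, which makes androgen precursors, 0 to 4 counts, and the aromatase gene Cyp19a1 and Hsd3b1 each 1 count in all libraries together. Star, which moves cholesterol into mitochondria and is named here after its values were seen, had 3.82 to 14.9 CPM. It was higher in metestrus than in proestrus (log2 fold change 1.41 ± 0.34 SE, edgeR adjusted p = 0.0357), a call lost without any 1 proestrus, estrus or metestrus library (0.0552 to 0.151). Cyp21a1, a hydroxylase of progesterone in the adrenal, had 43.4 and 26.0 CPM in proestrus, 58.1 and 61.3 CPM in estrus, 2.95 and 1.24 CPM in metestrus, and 0.405 and 1.56 CPM in diestrus. The 4 libraries of proestrus and estrus lay above the other 4. It fell in metestrus against estrus (log2 fold change -4.83, edgeR adjusted p = 0.00309) and was higher in estrus than in diestrus (5.94, adjusted p = 0.00284), and it changed across the stages (adjusted p = 0.00278). The mouse has a closely similar pseudogene of Cyp21a1, so that its reads may be shared.

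Among conjugating enzymes, 2 sulfotransferases changed across the stages, and both were highest in diestrus, where Sult1e1 had no count. Sult1d1, which acts on catecholamines and other small molecules, had 3.64 and 5.16 CPM in proestrus, 19.4 and 12.9 CPM in estrus, 23.1 and 44.5 CPM in metestrus, and 181 and 166 CPM in diestrus (edgeR adjusted p across the stages = 0.00138). Proestrus was lower than diestrus by a log2 fold change of -5.30 (adjusted p = 0.00124), and estrus than diestrus by -3.43 (0.00275). Sult1a1, a phenol sulfotransferase, had 3.95 and 3.67 CPM in proestrus, 9.5 and 9.81 CPM in estrus, 2.46 and 3.68 CPM in metestrus, and 27.4 and 19.1 CPM in diestrus (edgeR adjusted p across the stages = 0.00222). Both genes were higher in both diestrus libraries than in any other library.

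Redox partners and other reductases differed in their courses. Por, the electron donor of microsomal cytochromes, had 285 and 243 CPM in proestrus, 212 and 235 CPM in estrus, 102 and 91.2 CPM in metestrus, and 90.5 and 112 CPM in diestrus, and was lower in metestrus than in estrus (log2 fold change -1.21, edgeR adjusted p = 0.00305). Akr1c14, which reduces ketosteroids, had 243 and 194 CPM in proestrus and 29.9 to 68.9 CPM in the 6 other libraries (edgeR adjusted p across the stages = 0.00833). Akr1c6 had 0.359 and 0.199 CPM in proestrus, 4.15 and 4.08 CPM in estrus, and 0 counts in metestrus and diestrus. Estrus was thus at least 62.9-fold higher than metestrus and at least 57.7-fold higher than diestrus, taking 3 counts over the 2 libraries of the lower stage as the floor (edgeR adjusted p = 0.00288 and 0.00366). Por, Akr1c14 and Akr1c6 kept their call across the stages with any library left out.

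Several low genes were seen mainly in estrus. Hsd17b6, which oxidises androgen metabolites, had 1.2 and 0.981 CPM in estrus and 0 counts in all other libraries, at least 14.4-fold higher than proestrus. Hsd17b13, a lipid droplet protein like Hsd17b11, had 5.05 and 5.06 CPM in estrus, at least 70.9-fold higher than diestrus. In proestrus Hsd17b13 had 0.923 and 0 CPM, and estrus over proestrus did not pass (log2 fold change 3.45 ± 1.245 SE, edgeR adjusted p = 0.1185). Akr1c20 had 0.95 and 0.774 CPM in estrus against 0 to 0.0513 CPM elsewhere. Their calls across the stages (edgeR adjusted p = 0.014, 0.0279 and 0.0123) were lost without the first estrus library (0.106, 0.106 and 0.0844) or the second (0.0883, 0.101 and 0.0659). For Hsd17b13 the call was also lost without the first (0.0779) or second (0.0721) metestrus library and with DESeq2 (0.164).

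Among transporters of steroid conjugates, Slco2b1 had 44.0 and 39.1 CPM in estrus and 10.1 to 19.6 CPM in the 6 other libraries (edgeR adjusted p across the stages = 0.00654, or 0.0515 without the first estrus library). Abcg2, an exporter of sulfated estrogens, had 49.5 and 45.4 CPM in diestrus and 24.3 to 40.5 CPM in the others (edgeR adjusted p = 0.0121). Slc10a6, an importer of sulfated steroids, was lowest in metestrus, at 1.07 and 0.599 CPM, against 2.77 to 13.6 CPM elsewhere. Its adjusted p of 0.0209 came to 0.05 to 0.0977 without the first proestrus library or any 1 estrus or metestrus library. Hsd17b12, which elongates fatty acids, had 141 and 133 CPM in proestrus and 58.0 to 98.1 CPM elsewhere (edgeR adjusted p = 0.0104, or 0.0538 without the first proestrus library).

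The remaining named genes had calls that single libraries decided. Cyb5a, an electron donor, had 89.5 and 102 CPM in estrus and 98.9 to 162 CPM elsewhere (edgeR adjusted p across the stages = 0.0258, or 0.0639 to 0.0948 without the first proestrus library or any 1 estrus or metestrus library). Akr1c12 had 0.450 and 0.454 CPM in diestrus and 0.893 to 2.99 CPM elsewhere (0.027, or 0.0532 to 0.0987 without the first proestrus library or any 1 estrus or diestrus library). Akr1b7 had 4.15 and 4.88 CPM in metestrus and 1.08 to 2.29 CPM elsewhere (0.0469, or 0.0709 to 0.195 without any 1 proestrus or metestrus library or the second estrus library). Cyp3a13, a cytochrome of drug and steroid breakdown, had 21.3 and 1.04 CPM in proestrus and 0 to 0.202 CPM in metestrus and diestrus (0.0311, or 0.0673 to 0.0919 without any 1 estrus or metestrus library).

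**Figure D5:**
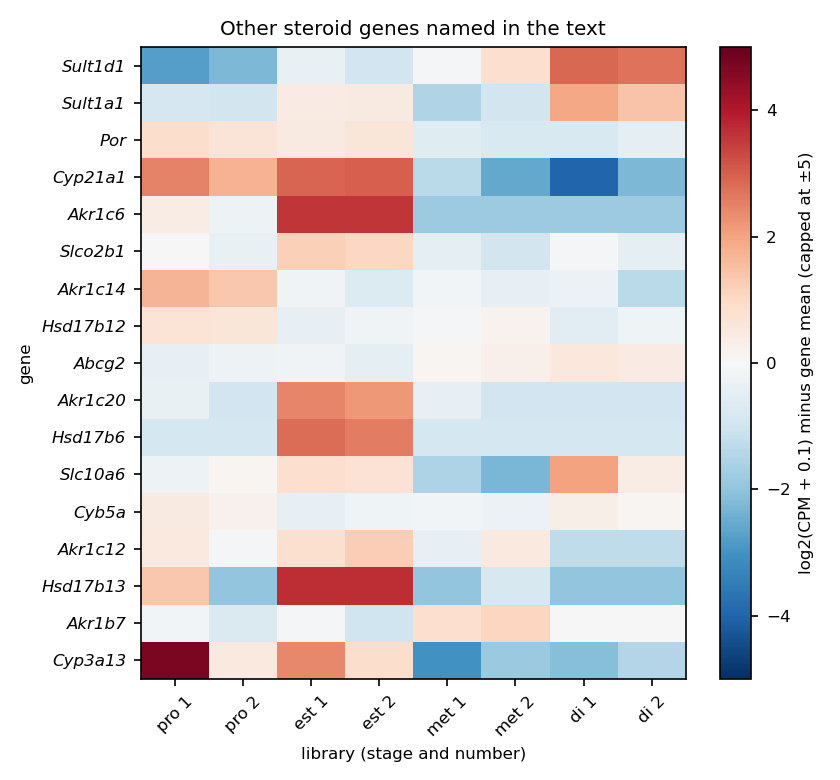
Related steroid genes named in the text (rows) in the 8 libraries (columns), coloured by log2(CPM + 0.1) minus the gene's mean and capped at 5 in either direction. Sult1d1 and Sult1a1 are highest in the diestrus columns, Akr1c6, Hsd17b6, Hsd17b13 and Akr1c20 in the estrus columns, and Por and Cyp21a1 in proestrus and estrus.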

How the data were processed

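RNA of whole uterus was sequenced in 8 libraries, 2 per stage, and all were used, grouped by the stage in the labels. The deposited values are read counts per gene, made by the authors and not normalised. The submitters' processing notes name STAR, featureCounts of the Subread package and the build GRCm38 (mm10). The strand setting was not given in the sources used here, nor were versions or the annotation release. Per the labels' protocols, the libraries were stranded.

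GENCODE M21 gave symbols and exon lengths and held 52058 of the 52308 identifiers. Sts was not analysed here. Genes were tested on the whole table by edgeR (4.0.16, under R 4.3.3). Its default filter by stage left 18114 genes, TMM factors lay between 0.8975 and 1.111, and 1 quasi-likelihood model with stage as its term covered all 8 libraries. The stages were tested together and in 6 pairs by two-sided F tests, with Benjamini-Hochberg adjustment over all tested genes and a threshold of 0.05. SE is the size of the log2 fold change divided by the square root of F. CPM used the TMM factors, and log2 CPM a prior count of 2. The procedure was tested on simulated data.

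The members and lists were chosen with earlier results of these data known. From 52 related genes, the rule named the 15 of lowest p over all stages plus the largest called rise and fall of each pair. Alternatives were DESeq2 1.42.0, its size factors in edgeR, no filter, only the libraries of a pair, a replicate block and each library left out. Same-numbered libraries of different stages had correlated deviations of -0.0926 to 0.145, so the numbers were not taken to pair samples. Libraries of a stage differed by more than counting error.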

Additional observations from a re-analysis of the deposited data

How the results depend on the processing

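With 2 libraries a stage, single libraries decide many calls. Of 718 results for the 8 tested members under alternatives, 623 kept their direction and side of the threshold, 32 lost their call, 49 gained one and 14 changed sign. Of 913 for the related genes named, mostly of called comparisons, 704 stayed the same in this sense, 201 lost their call and 8 gained one. Hsd11b2 kept its 4 calls under every alternative run, and Hsd17b4 gained none. The cause of the changes was not tested. Levels of Hsd17b2 and Akr1c18 in libraries with 2 or 3 counts, and of Sult1e1 with at most 1, are limited by depth.

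DESeq2 called 7 of the 8 members across the stages, 5 in metestrus over estrus, 3 in diestrus over metestrus, 5 in proestrus over diestrus and 5 in estrus over diestrus. Without the filter on low counts, 7 were called across the stages and 5 in proestrus over diestrus. With only the libraries of the pair, 3 were called in estrus over proestrus, 5 in metestrus over estrus and 0 in diestrus over metestrus. Leaving out each library gave 3 to 7 members across the stages, 1 to 4 in estrus over proestrus, 1 to 5 in metestrus over estrus, 0 to 4 in diestrus over metestrus, 1 to 5 in proestrus over diestrus, 3 to 6 in estrus over diestrus and 0 to 2 in metestrus over proestrus.

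For the related genes, diestrus over metestrus had 5 calls with DESeq2, 3 without the filter and 0 with only the pair, and proestrus over diestrus had 5 with only the pair. Leaving out each library gave 9 to 24 across the stages and, in the same order of pairs, 0 to 13, 5 to 18, 0 to 6, 5 to 12, 5 to 16 and 0 to 13. Over all tested genes, diestrus over metestrus had 992 calls with DESeq2, 451 without the filter, 0 with only the pair and 61 with the replicate block, against 92 in the main result. With only the pair, proestrus over diestrus had 1130, estrus over diestrus 1939 and metestrus over proestrus 4769. Leaving out each library gave 2941 to 9539 across the stages and 415 to 4713, 2128 to 8257, 0 to 2024, 1162 to 4649, 1336 to 5173 and 16 to 5001 in the pairs.

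Leaving out single libraries changed the sign of these log2 fold changes, given as lowest and highest: Hsd11b1 from -5.39 to 0.41 in proestrus over diestrus and -3.45 to 2.35 in estrus over diestrus, Hsd11b2 -0.017 to 0.37 in diestrus over metestrus, -0.24 to 0.22 in proestrus over diestrus and -0.44 to 0.049 in metestrus over proestrus, and Hsd17b2 -0.18 to 2.31 in estrus over proestrus. For Hsd17b4 and Hsd17b11 in diestrus over metestrus they were -0.021 to 0.12 and -0.71 to 0.58, and for Srd5a1 in estrus over diestrus -2.85 to 0.068. For Akr1c18 they were -1.09 to 5.40 in diestrus over metestrus and -3.30 to 4.30 in proestrus over diestrus, and for Cyp1b1 in estrus over proestrus -0.48 to 1.61.

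The replicate numbers share no stated source, so the block is a description: it gave 5 members across the stages, 4 in metestrus over estrus and the main counts in the other pairs, and under it Akr1c18 passed across the stages (adjusted p = 0.0257) and Hsd17b11 in metestrus over estrus (adjusted p = 0.0422). Scaling by plain library totals moved 7 stage means by more than their SD.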
